A study of Rattus norvegicus with 52 samples.

Results

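The genes described here are 10 components of the epithelial tight junction, the claudins Cldn1, Cldn3, Cldn4, Cldn5, Cldn7, Cldn8 and Cldn10, the membrane protein occludin (Ocln) and the cytoplasmic scaffolds Tjp1 and Mpdz. They were chosen by symbol from the 17356 genes of the counts tables, with earlier results of these data known. All 10 were found, and all 10 passed the filter on low counts in every fit. RNA had been sequenced from mammary cells of virgin female rats sorted by flow cytometry, in 48 libraries. The sort also stained Cd31 and Cd45, which mark endothelial and blood cells. The 16 libraries of 9 weeks came from Cdkn1b+/+ and Cdkn1b-/- ACI rats, with 2 libraries per genotype of basal/myoepithelial cells (Cd24+ Cd29HIGH), of mature luminal cells (Cd24+ Cd29LOW, without Cd49b or binding of peanut agglutinin, PNA), and of luminal progenitors (LP) taken as Cd49b+ or as PNA+ cells. At 4 weeks there were 3 Cdkn1b+/+ and 2 Cdkn1b-/- basal libraries and 3 luminal libraries (Cd24+ Cd29LOW) of each genotype, and at 6 weeks 3 and 2 basal and 2 and 2 luminal libraries. A further 12 libraries came from rats of the inbred strains ACI and BN that carried an E2 implant (E2-treated) or an empty one (control). Basal and luminal cells were sorted, with 2 libraries per cell type and treatment in ACI and 1 in BN. E2 is estradiol. The titles of the luminal libraries of that experiment carry Cd49b and PNA, the BN titles carry 2 animal numbers each, and an age is not among their labels. The study describes implants given at 9 weeks of age, with hormone released over 3 weeks. Cdkn1b encodes the cell cycle inhibitor p27. The knockout was made in zygotes of another strain as small deletions in the first coding exon, with both deletions bred into ACI, and rats of both genotypes were picked by genotyping from matings of heterozygotes, so every cell of a Cdkn1b-/- rat carries a deletion. Reads were counted over the whole gene, so a level above 0 does not speak against the deletion.

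Tight junctions seal the space between neighbouring epithelial cells near their apical side. Claudins and occludin span the membrane, and claudins determine which ions and solutes pass between cells. Tjp1 (ZO-1) and Mpdz (MUPP1) are PDZ-domain scaffolds that tie these proteins to the cytoskeleton and to polarity complexes. In the mammary gland tight junctions lie between luminal cells, which face the duct lumen, and separate milk from the interstitium during lactation, while basal cells lie beneath the luminal layer. Cldn5 is the main claudin of blood vessel endothelium.

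The reads assigned to genes numbered from 7985619 to 33859550 in a library, fewest at 6 weeks. Values are CPM, the library's counts scaled to a common total of assigned reads. The tests also scale each library by a factor (TMM), so their fold changes need not equal ratios of mean CPM. Fold changes, standard errors (SE) and p-values come from the quasi-likelihood test of edgeR, with p-values adjusted by the method of Benjamini and Hochberg over every gene tested, and a gene is said to be called where its adjusted p is under 0.05. Levels are compared between libraries and not between genes, since no transcript lengths were at hand. Cdkn1b itself lay between 1.59 and 4.24 CPM in Cdkn1b-/- libraries of 9 weeks and between 6.00 and 18.0 CPM in Cdkn1b+/+ libraries, with a log2 fold change of -1.95 (SE 0.26, edgeR adjusted p = 0.0021) in LP, which was not called when LP libraries of one genotype and number were summed (-1.98, edgeR adjusted p = 0.26), while in basal and mature luminal cells of 9 weeks it did not pass the test (-1.59 and -1.37, SE 0.37 each). It was lower in Cdkn1b-/- without overlap in both cell types at 4 weeks and in luminal cells at 6 weeks, but at 6 weeks the Cdkn1b+/+ basal library 3, with 3.13 CPM, lay below both Cdkn1b-/- basal libraries, and none of these 4 differences passed the test. Basal markers such as Krt5, Krt14 and Acta2 summed to 22788 to 37698 CPM in basal cells of 9 weeks against 322 to 577 in mature luminal cells and 383 to 3801 in LP. Luminal markers such as Krt8 and Krt18 summed to 13081 to 19997 CPM in mature luminal cells and to 4399 to 6191 in basal cells, more than the 2580 to 3673 CPM of basal cells of 4 weeks. Between LP and mature luminal cells the 12 luminal markers went both ways. In LP 3 were called higher (Pgr, Prlr and Foxa1) and 4 lower, among them Elf5, Krt19 and Krt8, while 23.4% of all genes were called. Endothelial markers summed to 454 to 3149 CPM in LP and 247 to 460 in mature luminal cells. At 6 weeks the Cdkn1b-/- luminal library 2 stood apart, with 7006 CPM of adipocyte, 3129 of fibroblast and 2687 of endothelial markers, and the genotype comparison of luminal cells of 6 weeks is given with and without it.

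Promoter windows from RefSeq (assembly GRCr8, 250 bases before to 50 after the start of the gene) were matched for 8 of the 10 genes. None was matched for Mpdz or for Cldn4, which was also low in basal cells. They were searched on both strands for CAGGTG (on the other strand CACCTG), the E-box bound by Snail and Zeb repressors, for CCGGAAG (on the other strand CTTCCGG), the core bound by ETS factors such as Elf3, Elf5 and Ehf, and for AACCNGTT (on the other strand AACNGGTT), bound by Grainyhead-like factors. Capitals mark these letters. Cldn3, Cldn7 and Ocln are shown because they were low together in basal cells. Cldn1 is shown because it was not low in basal cells of both genotypes and differed most between the genotypes at 9 weeks.
Cldn3: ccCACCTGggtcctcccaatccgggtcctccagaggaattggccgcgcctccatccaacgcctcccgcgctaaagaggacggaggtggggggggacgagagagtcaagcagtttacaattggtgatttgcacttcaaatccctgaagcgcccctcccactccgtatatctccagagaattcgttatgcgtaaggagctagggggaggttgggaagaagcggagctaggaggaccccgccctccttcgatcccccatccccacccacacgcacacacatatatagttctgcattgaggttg
Cldn7: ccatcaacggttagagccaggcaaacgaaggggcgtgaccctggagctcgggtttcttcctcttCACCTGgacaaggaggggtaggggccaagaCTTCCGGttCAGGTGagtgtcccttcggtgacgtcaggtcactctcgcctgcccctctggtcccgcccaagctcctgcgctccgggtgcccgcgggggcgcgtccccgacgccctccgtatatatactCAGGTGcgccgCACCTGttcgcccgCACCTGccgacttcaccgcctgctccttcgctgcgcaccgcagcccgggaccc
Ocln: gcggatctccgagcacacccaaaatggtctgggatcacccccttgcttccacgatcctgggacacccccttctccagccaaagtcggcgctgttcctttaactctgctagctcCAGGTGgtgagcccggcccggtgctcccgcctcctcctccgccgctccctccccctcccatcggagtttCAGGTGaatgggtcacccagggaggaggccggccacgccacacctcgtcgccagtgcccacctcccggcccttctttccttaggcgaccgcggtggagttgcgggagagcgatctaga
Cldn1: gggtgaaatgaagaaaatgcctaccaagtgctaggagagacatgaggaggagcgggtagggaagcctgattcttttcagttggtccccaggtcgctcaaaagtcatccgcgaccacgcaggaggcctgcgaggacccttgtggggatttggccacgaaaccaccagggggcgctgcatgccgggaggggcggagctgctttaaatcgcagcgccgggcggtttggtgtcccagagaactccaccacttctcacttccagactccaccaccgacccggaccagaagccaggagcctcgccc
These windows lie at chr12:27346498-27346797 on the minus strand for Cldn3, chr10:55188420-55188719 on the plus strand for Cldn7, chr2:33441149-33441448 on the minus strand for Ocln and chr11:87926126-87926425 on the plus strand for Cldn1. CAGGTG was found in 3 of the 8 windows and in 18.9% of all 33365 windows of this length. The windows of Cldn8 and Cldn10, which were also lower in basal cells, held no copy, nor did those of Cldn1, Cldn5 and Tjp1. Cldn7 held 5 copies, which begin at -186, -147, -28, -17 and -3 from the start of the gene, and 4 of the 33365 windows held at least 5. Ocln held 2 copies at -137 and -68 and Cldn3 held 1 at -248. CCGGAAG was found in Cldn7 alone, at -156, and in 8.77% of all windows, and AACCNGTT in Tjp1 alone, at -146, and in 2.1% of all windows. The window of Cldn1 held none of the 3. A match is a description of these letters only. Cldn3 and Cldn4 are neighbours on chromosome 12, with no protein-coding gene between them in the same annotation.

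Cldn3, Cldn4, Cldn7 and Ocln were high in every luminal population and low in basal cells of every age. These are the claudins and the membrane protein of simple epithelia. Cldn3, a claudin that tightens the barrier, had 125 and 343 CPM in Cdkn1b+/+ and 255 and 233 in Cdkn1b-/- basal libraries of 9 weeks. It had 974 to 1545 CPM, with a median of 1236, in the 8 LP libraries, and 2161, 2800, 1812 and 1802 CPM in mature luminal libraries. The 3 populations did not overlap. Of all genes, 30.5% did not overlap between basal and mature luminal libraries, 26.1% between basal and LP, and 9.23% between LP and mature luminal. The log2 fold change of basal against mature luminal cells was -3.28 (SE 0.33, edgeR adjusted p = 1.0e-05), that of basal cells against LP was -2.36 (SE 0.29), and LP were in turn lower than mature luminal cells (-0.92, SE 0.25, edgeR adjusted p = 0.018). This last call was lost without the Cdkn1b-/- mature luminal library 1 (edgeR adjusted p = 0.058) or the Cdkn1b+/+ library 2 (edgeR adjusted p = 0.079). In 38.7% of the 12809 genes tested basal and mature luminal cells differed, in 50% basal cells and LP, and in 23.4% LP and mature luminal cells. Basal cells were higher in 20.4% and lower in 18.4% of genes than mature luminal cells, and higher in 27% and lower in 23% than LP. Of the 10 genes, 6 were lower and 1 higher against mature luminal cells, and 7 lower against LP.

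Cldn4, which with Cldn3 binds the Clostridium enterotoxin, followed the same order with a wider spread between libraries. Basal cells had 603 and 2805 CPM in Cdkn1b+/+ and 2468 and 1672 in Cdkn1b-/-, LP 5665 to 15043, and mature luminal cells 10253, 26328, 20249 and 12866. Library 2 exceeded library 1 in Cdkn1b+/+ and library 1 exceeded library 2 in Cdkn1b-/- in all 4 sorted populations, and the same held for Ocln. Basal cells were lower than mature luminal cells by a log2 of -3.36 (SE 0.60, edgeR adjusted p = 0.00062), while LP and mature luminal cells were not told apart (-0.83, SE 0.46, edgeR adjusted p = 0.20). With libraries of one genotype and number as a block, this difference was called with the same size (-0.83, edgeR adjusted p = 0.0029).

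Cldn7, a claudin found along the whole lateral membrane, had 13.6, 30.7, 34.5 and 20.1 CPM in the basal libraries of 9 weeks, 55.1 to 172 in LP and 234, 259, 214 and 139 in mature luminal libraries. Its log2 fold change was -3.23 (SE 0.45, edgeR adjusted p = 0.00011) for basal against mature luminal cells and -2.32 (SE 0.41) for basal cells against LP. Ocln, a four-pass membrane protein of the junction strands, had 19.4, 40.1, 30.5 and 15.6 CPM in basal libraries, 161 to 342 in LP and 204, 330, 259 and 159 in mature luminal libraries. Here LP and mature luminal cells lay in one range (log2 difference -0.08, SE 0.32), and basal cells lay below both (-3.33, SE 0.41, against mature luminal cells and -3.25, SE 0.39, against LP).

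At 4 weeks the distance between the layers was wider for these 4 genes. Cldn3 had 21.0 to 45.9 CPM in 5 basal and 1338 to 2669 in 6 luminal libraries, a log2 fold change of -5.88 (SE 0.45, edgeR adjusted p = 6.7e-07). The log2 fold changes of Cldn4, Cldn7 and Ocln were -6.22 (SE 0.44), -6.22 (SE 0.61) and -5.73 (SE 0.40). At 6 weeks Cldn3 had 0.626 to 35.0 CPM in basal and 878 to 1868 in luminal libraries, with a log2 fold change of -6.89 (SE 0.97, edgeR adjusted p = 0.0045), and Cldn4 (-7.35, SE 1.09), Cldn7 (-6.77, SE 1.06) and Ocln (-4.25, SE 0.53) were called as well. These 4 calls of 6 weeks stood without each of the 9 libraries in turn. Genes that differed between basal and luminal cells made up 35.1% of 12082 at 4 weeks (20.3% higher and 14.8% lower in basal cells) and 5.65% of 11921 at 6 weeks (3.49% and 2.16%). No basal library overlapped a luminal one in any of the 4 genes at any age. Of all genes, 25% were so separated at 4 weeks and 10.6% at 6 weeks, and the shares of 9 weeks are given above. The difference between the ages was not tested, since the luminal gates differ, and the luminal markers above were also higher in basal libraries of 9 weeks than of 4 weeks, whose part in this was not tested. In bulk samples, fewer cells of a type and less RNA per cell cannot be told apart.

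**Figure D1:**
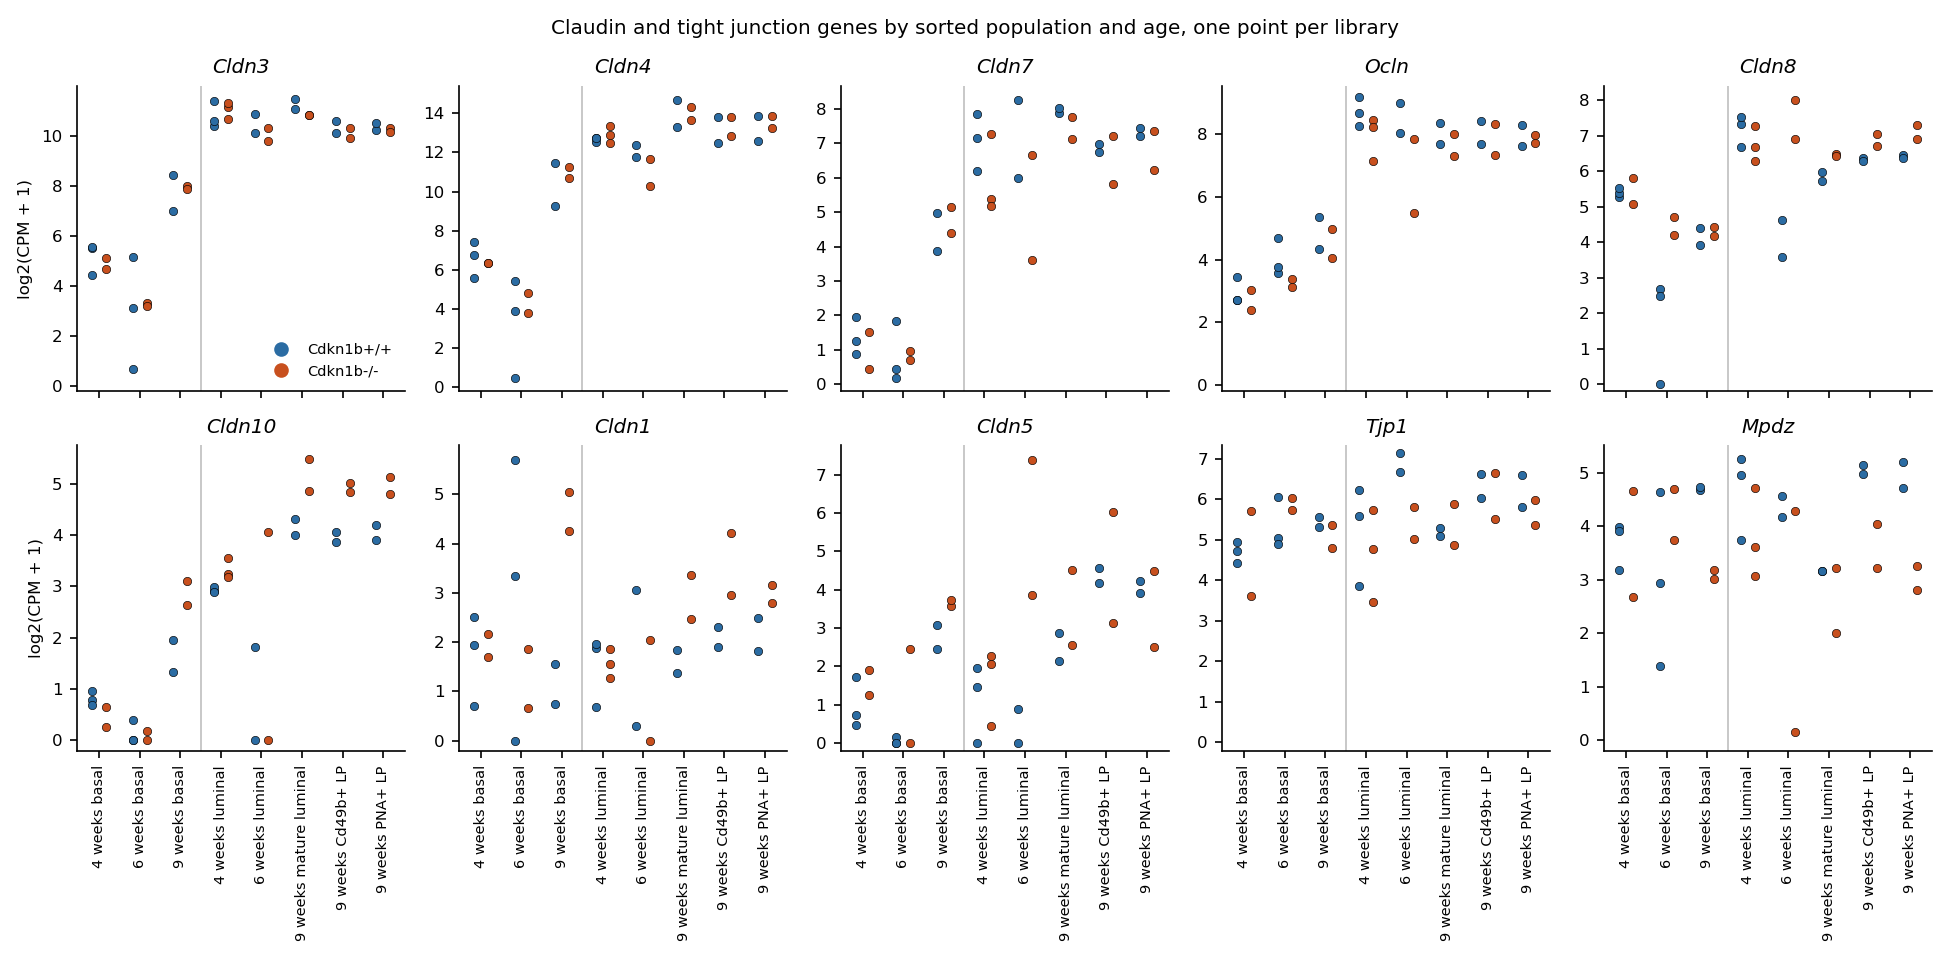
Level of each of the 10 genes as log2(CPM + 1) in sorted populations of 4, 6 and 9 weeks, with 1 point per library, Cdkn1b+/+ in blue and Cdkn1b-/- in orange, and basal populations left of the grey line. Cldn3, Cldn4, Cldn7 and Ocln lie low in basal and high in luminal populations, while Cldn1, Cldn5, Tjp1 and Mpdz do not divide at the line.

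Cldn8 and Cldn10, claudins known from the tight junctions of kidney tubules, were also lower in basal cells. Cldn8 had 20.0, 14.1, 20.5 and 17.2 CPM in basal, 77.0 to 157 in LP and 61.8, 51.7, 87.9 and 84.9 in mature luminal libraries of 9 weeks. Basal cells lay below mature luminal cells by a log2 of -2.11 (SE 0.19, edgeR adjusted p = 5.2e-06) and below LP by -2.50 (SE 0.18), and LP and mature luminal cells were not told apart (0.39, SE 0.16, edgeR adjusted p = 0.094). Cldn10 had 1.52, 2.88, 5.25 and 7.59 CPM in basal, 13.6 to 34.1 in LP and 14.9, 18.9, 27.9 and 43.4 in mature luminal libraries, with log2 fold changes of -2.83 (SE 0.24) and -2.47 (SE 0.22) against mature luminal cells and LP. At 4 weeks both were again lower in basal cells, Cldn8 by a log2 of -1.57 (SE 0.27, edgeR adjusted p = 0.0005) and Cldn10 by -3.76 (SE 0.43). At 6 weeks neither passed the test (-2.85, SE 0.89, for Cldn8). Cldn10 was at 0 counts in 3 of the 5 basal libraries of 6 weeks and in 2 of the 4 luminal ones, so no fold is given.

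The remaining 4 genes did not divide basal from luminal cells. Cldn1, the claudin of the epidermal barrier, had overlapping ranges of 0.682 to 32.3 CPM in basal cells, 2.54 to 17.7 in LP and 1.58 to 9.24 in mature luminal cells of 9 weeks, and no age gave a called difference. These ranges and tests join the genotypes. At 9 weeks both Cdkn1b+/+ basal libraries lay below all Cdkn1b+/+ LP libraries and overlapped the mature luminal ones. Both Cdkn1b-/- basal libraries lay above all Cdkn1b-/- LP and mature luminal libraries. Differences within a genotype were not tested. Tjp1, which is also found at junctions without claudins, had 26.7 to 46.6 CPM in basal cells, 40.1 to 100 in LP and 28.1 to 58.5 in mature luminal cells. Its difference between basal cells and LP (-0.87, SE 0.33, edgeR adjusted p = 0.039) was lost when any 1 of 8 of the 12 libraries was left out, with adjusted p-values of up to 0.16 without the Cdkn1b-/- basal library 2. Mpdz had 24.8, 25.9, 8.09 and 7.04 CPM in basal, 6.03 to 36.2 in LP and 8.03, 8.01, 3.02 and 8.39 in mature luminal libraries. Averaged over the genotypes, Mpdz was higher in basal cells (0.93, SE 0.25, edgeR adjusted p = 0.011) and in LP (1.21, SE 0.23, edgeR adjusted p = 0.0041) than in mature luminal cells. Between basal cells and LP it was not called. In Cdkn1b+/+ all basal and LP libraries lay above both mature luminal ones, while in Cdkn1b-/- they overlapped. Mpdz was not called at 4 weeks (-0.52, SE 0.39). At 4 weeks Tjp1 (-0.34, SE 0.46) and Cldn1 (0.46, SE 0.56) were not called either. With libraries of one genotype and number as a block, 5473 of 12809 genes were called for LP against mature luminal cells, 2999 without it, and calls were also made for Cldn5 (1.12, edgeR adjusted p = 0.033), Cldn7 (-0.97, edgeR adjusted p = 0.0028), Cldn8 (0.40, edgeR adjusted p = 0.044) and Tjp1 (0.64, edgeR adjusted p = 0.0033). PNA+ and Cd49b+ LP differed in none of the 10 genes and in 0 of 11725 genes by edgeR's test, with 419 genes at an unadjusted p under 0.05 and 47 genes called by DESeq2.

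**Figure D2:**
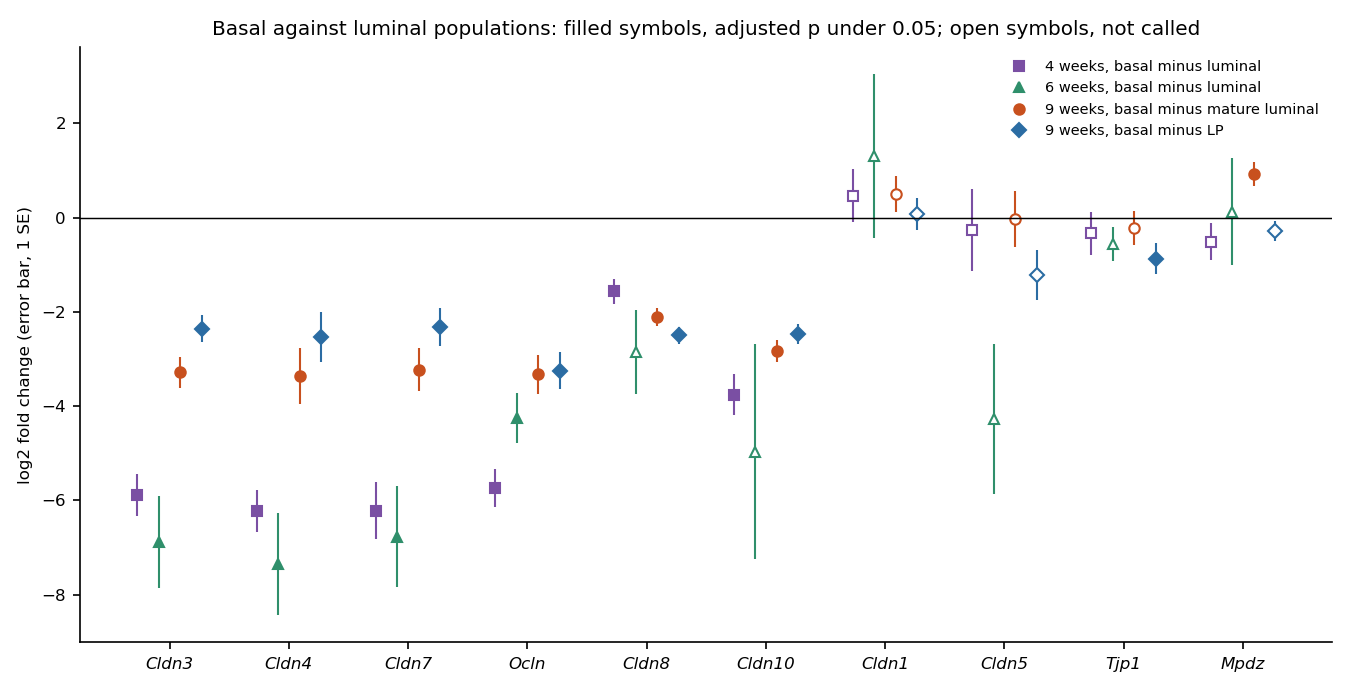
Log2 fold change of basal against luminal populations for the 10 genes at 4, 6 and 9 weeks, with bars of 1 SE, filled symbols for an adjusted p under 0.05 and open symbols otherwise. Cldn3, Cldn4, Cldn7 and Ocln lie between -2.32 and -7.35 in all 4 comparisons, Cldn8 and Cldn10 at -1.57 or below, and Mpdz is called in 1 of them, above 0, against mature luminal cells. The 6-week symbol of Cldn10 rests on libraries at 0 counts and gives no usable fold.

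Cldn5 did not divide at the basal and luminal gates, and the libraries with most Cldn5 were also rich in endothelial marker genes. It was higher in LP (4.66 to 64.6 CPM, median 17.2) than in mature luminal cells (median 5.59, up to 22.0 CPM) without reaching the threshold (1.19, SE 0.54, edgeR adjusted p = 0.13), and it was 0 to 3.82 CPM in the 11 libraries of 4 weeks. Of the 14 endothelial markers found in the files at most 1 was at 0 in any library of 9 weeks, and their summed level was highest in the same Cd49b+ LP library, Cdkn1b-/- number 2 (3149 CPM), that had the most Cldn5 of 9 weeks (64.6 CPM). At 6 weeks the Cdkn1b-/- luminal libraries had 13.6 and 167 CPM of Cldn5 and 742 and 2687 CPM of endothelial markers, against at most 0.837 and 93.2 in Cdkn1b+/+ luminal libraries. Over the 48 libraries the 2 genes most like Cldn5 were the endothelial genes Plvap (Pearson's r = 0.87) and Pecam1 (r = 0.84), both on that list of markers. Pecam1 encodes Cd31, which the sort had stained. The part of endothelial cells in the Cldn5 level was not tested.

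**Figure D3:**
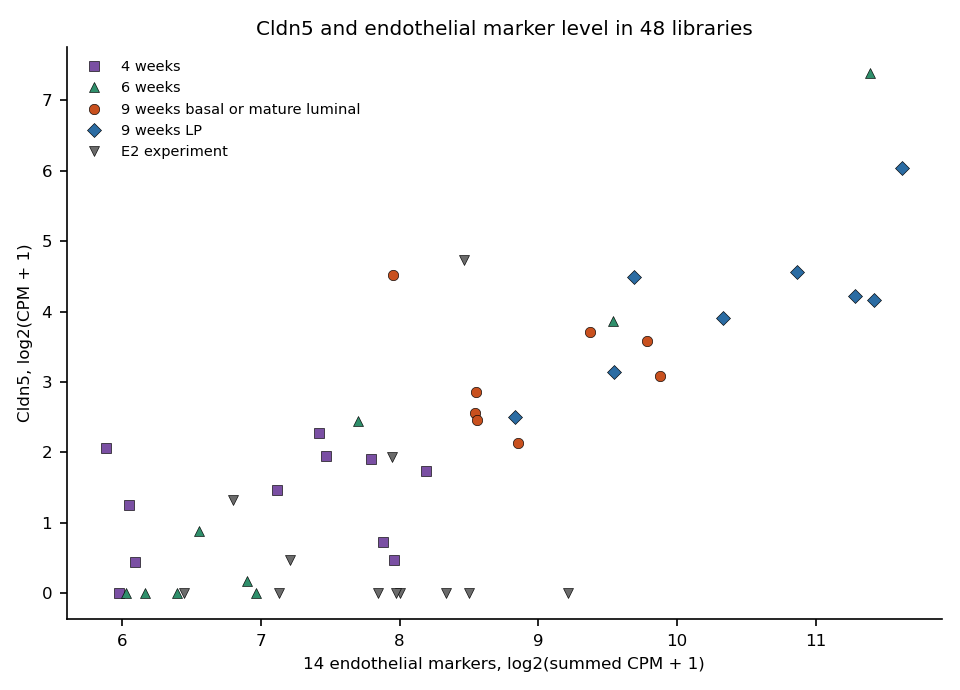
Level of Cldn5, as log2(CPM + 1), against the summed level of 14 endothelial markers, as log2(summed CPM + 1), with 1 point per library of all 48. The libraries with most Cldn5, 167 CPM at 6 weeks and 64.6 CPM in Cd49b+ LP, are also among the 3 highest in endothelial markers, and 13 libraries have no Cldn5.

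Other junction genes divided in both directions between the layers. Of 44 other tight junction genes tested at 9 weeks, 13 were higher and 19 lower in basal than in mature luminal cells, against 20.4% and 18.4% of all genes. Their median on the log2 scale was -0.33, against -0.04 over all genes and -2.47 over the 10 genes, which were chosen with earlier results of these data known. Jam3, a junctional adhesion molecule shared with mesenchymal cells (6.08, SE 0.79), the scaffold Magi2 (4.28, SE 0.53) and the polarity protein Pard6g (3.57, SE 0.30) were the most basal of those with a mean log2 CPM above 2. Tjp3, a scaffold related to Tjp1 (-3.09, SE 0.28), the occludin relative Marveld3 (-3.04, SE 0.39) and Cldn6 (-3.00, SE 0.31) were the most luminal by the same limit, which leaves out Cldn2, with a mean of 0.381 CPM in mature luminal and 0 in basal cells. Among the claudins of this list Cldn11 and Cldn12 (0.76, SE 0.22) were called higher in basal cells. Cldn2, Cldn9 and Cldn23 were called lower, as was Cldn6. Besides Cldn6, these claudins were named after their values were seen. Of 19 genes of adherens junctions and desmosomes 8 were higher and 4 lower in basal cells, and the desmosomal genes Dsc3 (6.75, SE 0.98), Pkp1 (5.28, SE 0.57) and Dsg3 (5.16, SE 0.83), known from stratified epithelia, led the first group. Nectin4 (-3.36, SE 0.45), Pkp2 (-3.20, SE 0.26) and Mllt4 (-1.49, SE 0.23), which encodes afadin, were lower.

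Of 20 genes that regulate junctions 4 were higher and 9 lower in basal than in mature luminal cells, against 20.4% and 18.4% of all genes. The repressor Snai2 (6.29, SE 0.99), the basal factor Tp63 (5.54, SE 0.75) and Twist1 (3.42, SE 0.41) were higher, and the epithelial ETS factors Ehf (-3.34, SE 0.47), Elf5 (-3.15, SE 0.26) and Elf3 (-3.10, SE 0.43) were lower. In LP against mature luminal cells 6 of 44 other tight junction genes (13.6%) were higher and 0 lower, near the share of all genes that were higher (11.7%). Of all genes 11.7% were lower. The 6 were led by Jam2 (2.70, SE 0.51), Jam3 (2.47, SE 0.64) and Esam (2.25, SE 0.54). Without single libraries the call of Jam3 was lost in 3 of 12 cases (edgeR adjusted p up to 0.073) and that of Esam in 1. Jam2 and Esam are known from endothelium. Of the endothelial markers above, 13 of 13 tested were called higher in LP as well, with a median log2 fold change of 2.16. Their part in these genes, and in the regulators that follow, was not tested. Zeb1 (2.42, SE 0.48), Zeb2 (2.23, SE 0.50) and Sox18 (2.07, SE 0.56) led the regulators that were higher in LP, and Elf5 was lower (-0.76, SE 0.20), with the calls of Sox18 and Elf5 lost in 2 of 12 cases each (edgeR adjusted p up to 0.084 and 0.098). All these losses came without a mature luminal library. At 4 weeks 12 tight junction genes were higher and 18 lower in basal cells, among them Jam3 (7.99, SE 0.32), Marveld3 (-6.18, SE 0.63) and the polarity protein Crb3 (-5.82, SE 0.48), and at 6 weeks 2 were higher and 7 lower, of 45 and 44 tested. Over all genes 20.3% were higher and 14.8% lower at 4 weeks, and 3.49% and 2.16% at 6 weeks.

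At 9 weeks 4 of the 10 genes were called between Cdkn1b-/- and Cdkn1b+/+ LP with PNA+ and Cd49b+ libraries as separate samples. None was called when libraries of one genotype and number, which are not independent, were summed. Cldn1, Cldn8 and Cldn10 were higher and Mpdz was lower in Cdkn1b-/-, and in each of these 4 genes all 4 libraries of one genotype lay on one side of all 4 of the other. By the same test 3.4% of the 12809 genes differed in LP (2.12% higher and 1.29% lower), and in 17.8% the genotypes did not overlap. The other 6 genes overlapped, with log2 fold changes from 0.01 (Tjp1) to 0.63 (Cldn5).

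Cldn1 had 3.93 and 2.72 CPM in Cd49b+ and 2.54 and 4.63 in PNA+ LP of Cdkn1b+/+ rats, against 6.82, 17.7, 5.95 and 7.90 CPM in Cdkn1b-/-. The Cdkn1b-/- libraries lay above all Cdkn1b+/+ libraries, the nearest at 5.95 against 4.63 CPM, and Cd49b+ library 2 held the top value. The log2 fold change was 1.72 (SE 0.38, edgeR adjusted p = 0.027), and 1.39 (edgeR adjusted p = 0.030) without that library. The call was lost when any of 5 of the 8 libraries was left out, with edgeR adjusted p-values between 0.051 and 0.089.

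Cldn8 had 81.7, 77.0, 85.9 and 82.0 CPM in Cdkn1b+/+ LP and 132, 103, 120 and 157 in LP of Cdkn1b-/-. Its log2 fold change by the test, with TMM scaling, was 0.98 (SE 0.18, edgeR adjusted p = 0.013). Cldn10 had 13.6, 15.6, 17.4 and 13.9 CPM against 27.5, 31.4, 26.9 and 34.1, a log2 fold change of 1.30 (SE 0.22, edgeR adjusted p = 0.0087). These were the narrowest ranges within genotype among the 4 genes. Mpdz, a scaffold with many PDZ domains, had 30.6, 34.4, 25.4 and 36.2 CPM in Cdkn1b+/+ and 8.39, 15.6, 6.03 and 8.57 in LP of Cdkn1b-/-. Its log2 fold change by the test was -1.46 (SE 0.25, edgeR adjusted p = 0.0088). The study had named Mpdz among genes decreased in Cdkn1b-/- basal cells of 9 weeks. Its place on the list is thus not independent of the genotype results of 9 weeks. The calls of Cldn8, Cldn10 and Mpdz stood without each of the 8 libraries in turn. Each time the other LP library of that genotype and number stayed in the fit. The 4 calls rest on PNA+ and Cd49b+ libraries as separate samples. When libraries of one genotype and number were summed, leaving 2 samples per genotype, the log2 fold changes were 1.72, 0.95, 1.26 and -1.46 for Cldn1, Cldn8, Cldn10 and Mpdz, and all 4 calls were lost, with edgeR adjusted p-values between 0.38 and 0.55.

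The LP libraries of the genotypes also differed in other cell markers. Endothelial markers summed to 1284 to 2730 CPM in Cdkn1b+/+ and to 454, 745, 826 and 3149 in Cdkn1b-/- LP, and fibroblast markers to 617 to 1575 and 174 to 1121. Luminal markers summed to 11801 to 13882 and 9197 to 10983 CPM. The part of these markers in the 4 results was not tested. The 10 genes with most counts of each library took 10.8% to 15.4% of its counts in Cdkn1b+/+ LP. In Cdkn1b-/- LP they took 19.1% to 29.8%. A larger share leaves less CPM for all other genes, and the marker sums are not corrected for it.

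In basal cells of 9 weeks Cldn1 had 0.682 and 1.96 CPM in Cdkn1b+/+ (18 and 47 counts) and 18.2 and 32.3 CPM in Cdkn1b-/- (468 and 702 counts). This was the widest gap between the genotypes among the 10 genes in any population of 9 weeks, with a log2 fold change of 4.48 (SE 0.61, edgeR adjusted p = 0.010), in a comparison with 7 of 12809 genes called (0.0546%). Without single libraries the log2 fold change lay between 3.87 and 5.50. The call was lost without the Cdkn1b-/- library 2 (4.03, edgeR adjusted p = 0.074) and without the Cdkn1b+/+ library 1 (3.87, edgeR adjusted p = 0.21). Cldn5 (12.1 CPM at most against 7.48 at most), Cldn10 (5.25 and 7.59 against 1.52 and 2.88 CPM) and Mpdz (8.09 and 7.04 against 24.8 and 25.9 CPM) did not overlap either and were not called, with log2 fold changes of 1.18 (SE 0.85), 1.78 (SE 0.33, edgeR adjusted p = 0.10) and -1.49 (SE 0.36, edgeR adjusted p = 0.23). In these small groups the genotypes did not overlap in 41.7% of all genes. The study had named Mpdz as decreased in these basal cells, by its own test and threshold. Cldn8, at 20.5 and 17.2 against 20.0 and 14.1 CPM, had a log2 fold change of 0.40 (SE 0.26). Basal markers summed to 31873 and 37698 CPM in Cdkn1b-/- and 22788 and 29858 in Cdkn1b+/+ basal cells.

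In mature luminal cells no member was called, in a comparison with 17 of 12809 genes called (0.133%). Cldn1 had 4.55 and 9.24 CPM in Cdkn1b-/- against 2.60 and 1.58 (log2 fold change 1.86, SE 0.55, edgeR adjusted p = 0.32), Cldn8 87.9 and 84.9 against 61.8 and 51.7 (0.79, SE 0.26) and Cldn10 27.9 and 43.4 against 14.9 and 18.9 (1.21, SE 0.31, edgeR adjusted p = 0.25). In CPM these 3 lay higher in Cdkn1b-/- without overlap and Cldn3 and Cldn7 lower, and 29.3% of genes did not overlap in one direction or the other. By the test, with TMM scaling, the log2 fold changes of Cldn3 (-0.29, SE 0.42) and Cldn7 (-0.28, SE 0.59) were smaller than their SE. The 10 genes with most counts took at least 25.1% of counts in Cdkn1b-/- mature luminal libraries and at most 16.6% in Cdkn1b+/+. The CPM values are not corrected for this share. Mpdz overlapped, with 3.02 and 8.39 against 8.03 and 8.01 CPM (-0.39, SE 0.36).

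The genotype effect was also compared between populations. For Cldn1 the log2 fold change in LP was smaller than in basal cells by -2.76 (SE 0.67), which did not pass edgeR's test over all genes (adjusted p = 0.47) and passed DESeq2's (adjusted p = 0.023), as it did edgeR's without the Cd49b+ LP library 2 of Cdkn1b-/- (adjusted p = 0.037). No gene of 12809 passed edgeR's test of this difference, 926 had an unadjusted p under 0.05, and DESeq2 called 75. For Mpdz the fall in LP exceeded that in mature luminal cells by -1.07 (SE 0.44, edgeR adjusted p = 1), and no gene passed this test by edgeR or DESeq2, with 224 at an unadjusted p under 0.05. By edgeR's test with all libraries, the genotype effect is thus not shown to differ between populations for any of the 10 genes.

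**Figure D4:**
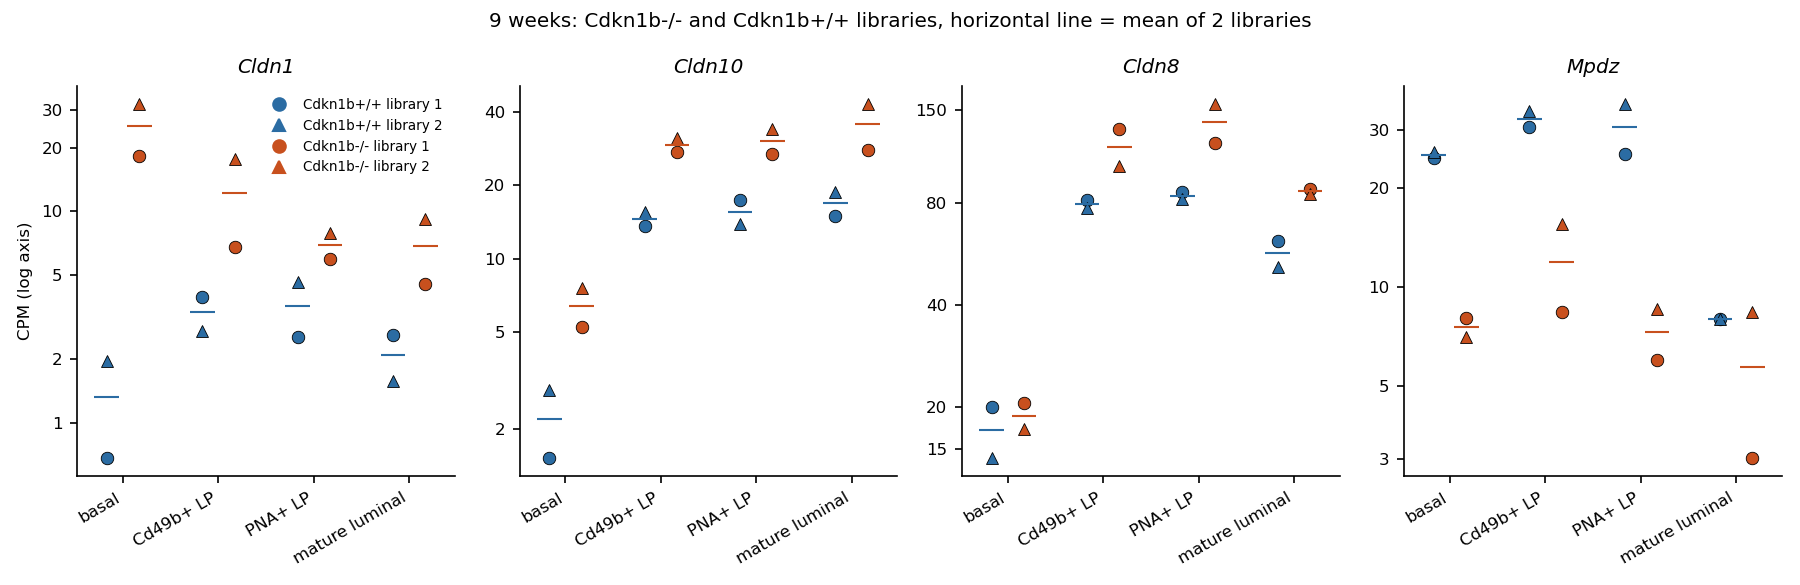
CPM on a log axis of Cldn1, Cldn10, Cldn8 and Mpdz in the 4 sorted populations of 9 weeks, with 1 symbol per library, circles for library 1 and triangles for library 2, Cdkn1b+/+ in blue, Cdkn1b-/- in orange, and a line at the mean of 2. Cldn10 of Cdkn1b-/- lies above Cdkn1b+/+ in every population, Cldn1 of basal cells lies at 18.2 and 32.3 CPM in Cdkn1b-/- against 0.682 and 1.96, and Mpdz lies lower in basal cells and LP.

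Few other junction genes were called with genotype. In LP, 1 of 44 other tight junction genes was lower in Cdkn1b-/- and 0 were higher, and 0 of 19 adherens junction and desmosome genes and 0 of 20 regulators were called. The 1 gene was Cldn19, named here after its values were seen, at a mean of 0.068 CPM in Cdkn1b-/- and 0.515 in Cdkn1b+/+ LP (edgeR adjusted p = 0.047). The lower mean is under the level of 3 counts in these libraries, so no fold is given, and the call was lost in 7 of 8 cases when single libraries were left out (edgeR adjusted p up to 0.13). In basal and mature luminal cells of 9 weeks none of these lists held a called gene. The median log2 fold change in LP was 0.35 over the 10 genes, 0.09 over the other tight junction genes and 0.03 over all genes.

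At 4 and 6 weeks none of the 10 genes differed between the genotypes by edgeR's test, in either cell type and with all libraries, nor did any other gene, with 310 and 435 genes at an unadjusted p under 0.05 in basal and luminal cells of 4 weeks and 1072 and 1961 at 6 weeks. DESeq2 called 2 and 0 genes at 4 weeks and 422 and 1423 at 6 weeks. Without the Cdkn1b-/- luminal library 1, which leaves the library that stands apart as the 1 luminal library of its genotype and assumes that it varies like the other groups, edgeR called 2269 genes at 6 weeks, among them Cldn5 and Ocln. At 4 weeks Cldn1 had 0.631, 2.84 and 4.71 CPM in Cdkn1b+/+ and 2.25 and 3.49 in Cdkn1b-/- basal cells (log2 fold change 0.21, SE 0.84). These ranges overlapped, unlike those of 9 weeks. The difference of the genotype effect of Cldn1 in basal cells between 9 and 4 weeks, tested in a fit of the 9 basal libraries chosen after seeing the data, was 4.28 (SE 1.11, edgeR adjusted p = 0.9999 over 12074 genes, unadjusted p = 0.0022), and it passed without the filter on low counts (edgeR adjusted p = 0.0024), while DESeq2 gave an adjusted p of 0.072. Cldn10 of 4 weeks had 0.728, 0.946 and 0.602 CPM in Cdkn1b+/+ and 0.577 and 0.194 in Cdkn1b-/- basal cells, and 6.49, 6.93 and 6.38 against 8.41, 10.8 and 8.04 CPM in luminal cells. The genotypes were separated in both cell types, lower in one and higher in the other, as in 9.58% and 13.4% of all genes. Mpdz of 4 weeks overlapped between the genotypes in both cell types.

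At 6 weeks Cldn8 lay higher in Cdkn1b-/- in both cell types, at 17.5 and 25.2 against 5.46, 4.64 and 0 CPM in basal and 119 and 255 against 10.9 and 23.6 CPM in luminal cells. The log2 fold changes were 2.53 (SE 1.15, edgeR adjusted p = 0.56) and 3.63 (SE 1.38, edgeR adjusted p = 0.24), and genotypes did not overlap in 41.7% and 48.2% of all genes. The luminal value of 255 CPM came from the library that stands apart. The other Cdkn1b-/- luminal library, at 119 CPM, still lay above both Cdkn1b+/+ libraries. Without the library that stands apart the luminal difference of Cldn8 was 2.59 (SE 1.54, edgeR adjusted p = 0.64). Cldn5 had 13.6 and 167 CPM in Cdkn1b-/- against 0 and 0.837, the 167 CPM from the library that stands apart. With a library at 0 no fold is given, and Cldn5 was not called with all libraries (edgeR adjusted p = 0.20). Mpdz in luminal cells was 18.5 and 0.108 CPM in Cdkn1b-/- and 17.1 and 22.9 in Cdkn1b+/+, so that its 1 low value came from the library that stands apart. Cldn4, Ocln and Tjp1 lay lower in both Cdkn1b-/- luminal libraries, at 230 and 44.4 CPM against 266 and 513 for Ocln. Without that library the log2 differences were -0.29 for Mpdz, -0.64 for Cldn4, -0.95 for Ocln and -1.29 for Tjp1, and 0 genes were called.

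Between 4 and 6 weeks Cldn8 fell in Cdkn1b+/+ basal cells. It had 38.0, 40.9 and 45.1 CPM at 4 weeks and 5.46, 4.64 and 0 at 6 weeks, a log2 fold change of -3.46 (SE 0.78, edgeR adjusted p = 0.011), in a comparison with 10.5% of 12572 genes called (4.82% higher and 5.68% lower) and 37.2% without overlap. In Cdkn1b+/+ luminal cells it had 160, 182 and 102 CPM at 4 weeks and 10.9 and 23.6 at 6 weeks (-3.08, SE 0.89, edgeR adjusted p = 0.064), where 3.1% of genes were called. Over the compared libraries alone the basal call was lost (edgeR adjusted p = 0.092) and the luminal one was made (edgeR adjusted p = 0.021). The other 9 genes were not called, with Cldn4 the nearest at -2.39 (SE 0.81, edgeR adjusted p = 0.064) in basal cells. Libraries of the ages were sequenced to different depths, and age and set of libraries cannot be told apart. Markers of several cell types moved with age in these basal libraries. Basal markers summed to 17258 to 19385 CPM at 4 weeks and 6666 to 9633 at 6 weeks, with 3 of 10 called lower, and fibroblast markers to 1219 to 6450 and 71.2 to 574 CPM, with 2 of 7 called lower. Of the myeloid markers 3 of 12 were called higher and 1 lower, and of the Schwann cell markers 3 of 7 lower. The part of these in the level of Cldn8 was not tested.

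Of the other tight junction genes Marveld2 (2.74, SE 0.65) and Crb3 (1.96, SE 0.56) were called higher at 6 weeks in basal cells and Cldn9 lower (0.027 against 5.17 CPM on average). Pkp1 (2.54, SE 0.63) and Mllt4 (2.06, SE 0.45) were called higher in the same cells. Without single libraries the call was lost in 3 of 6 cases for Crb3 (edgeR adjusted p up to 0.15), 2 for Marveld2, 4 for Pkp1, 1 for Mllt4 and 0 for Cldn9. In luminal cells Jam2 (0.202 against 4.36 CPM on average) and Cdh3 (0.051 against 2.54 CPM) were called lower and Mllt4 higher (2.32, SE 0.48). These luminal calls were lost in 5 of 5 cases for Cdh3 (edgeR adjusted p up to 0.19) and 4 of 5 for Jam2 and Mllt4, and without the 6-week Cdkn1b+/+ luminal library 1 the calls over all genes fell from 390 to 1. Dsc3 was called in luminal cells on a mean of 1.06 CPM at 6 weeks against 0 at 4 weeks, and this call too was lost in 5 of 5 cases.

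In the E2 experiment no difference of the 10 genes passed edgeR's test, whether between cell types, strains or treatments. Basal and luminal cells still lay apart in Cldn3, with 0 to 62.1 CPM in 6 basal and 790 to 1608 in 6 luminal libraries (log2 fold change -5.84, SE 1.34, edgeR adjusted p = 0.088), and in Cldn4 (-6.39, SE 1.39, edgeR adjusted p = 0.079), Cldn7 (-6.63, SE 1.82) and Ocln (-5.48, SE 1.39). The libraries of these 4 genes did not overlap between cell types, which 3.72% of 13335 genes did, and 0.525% of genes were called. With libraries of one animal as a block all 4 were called, among 293 of 13335 genes, with edgeR adjusted p-values of 0.031 for Cldn3, 0.012 for Cldn4, 0.024 for Cldn7 and 0.044 for Ocln. Cldn10 was at 0 counts in all 6 basal libraries and in 2 luminal ones. Of the other lists Tjp3 (0.083 against 61.3 CPM on average), Cldn23 (-2.74, SE 0.49), Nectin4 (0.538 against 106 CPM) and Ehf (-4.46, SE 0.59) were lower in basal cells. The call of Cldn23 was lost with libraries of one animal as a block. Without single libraries calls were lost in 9 of 12 cases for Cldn23, 7 for Nectin4, 6 for Tjp3 and 4 for Ehf (edgeR adjusted p up to 0.24).

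Cldn1 had 45.1 and 59.9 CPM in control and 169 and 102 in E2-treated ACI luminal cells, and 21.3 and 19.7 CPM in control and E2-treated BN luminal cells. All 4 ACI libraries lay above both BN libraries, as in 15% of genes in one direction or the other. The strain difference was 1.50 (SE 0.73) and that of treatment 0.68 (SE 0.64) on the log2 scale, and neither passed the test (edgeR adjusted p = 1). No gene passed it for strain or treatment in either cell type, with 451 and 401 genes at an unadjusted p under 0.05 for strain and treatment in luminal cells and 153 and 241 in basal cells. DESeq2 called 545, 324, 133 and 203 genes in the same order, with 0 of the 10 genes among them.

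Mpdz had 71.1 and 56.8 CPM in control and 14.1 and 3.29 in E2-treated ACI luminal cells, and 67.8 and 73.3 against 40.4 and 24.4 in ACI basal cells. E2-treated ACI libraries lay below their controls in both cell types, and the share of all genes so separated in ACI alone was not counted. With BN included, Mpdz did not overlap between treatments in basal cells, as in 8.38% of genes, and overlapped in luminal cells. BN luminal cells had 5.37 CPM in the control and 6.09 with E2, while BN basal cells had 60.3 and 1.81, with 1 library each, so that a difference between the strains in response was not tested. The log2 fold changes of E2 were -2.24 (SE 1.22) in luminal and -2.35 (SE 1.20) in basal cells and did not pass the test (edgeR adjusted p = 1). In the E2-treated ACI luminal library 1 fibroblast markers summed to 6911 CPM, and in the E2-treated BN basal library to 17144 CPM. That basal library also had 728 CPM of Cldn4, against 5.40 in the BN control. The part of other cells in these values was not tested.

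**Figure D5:**
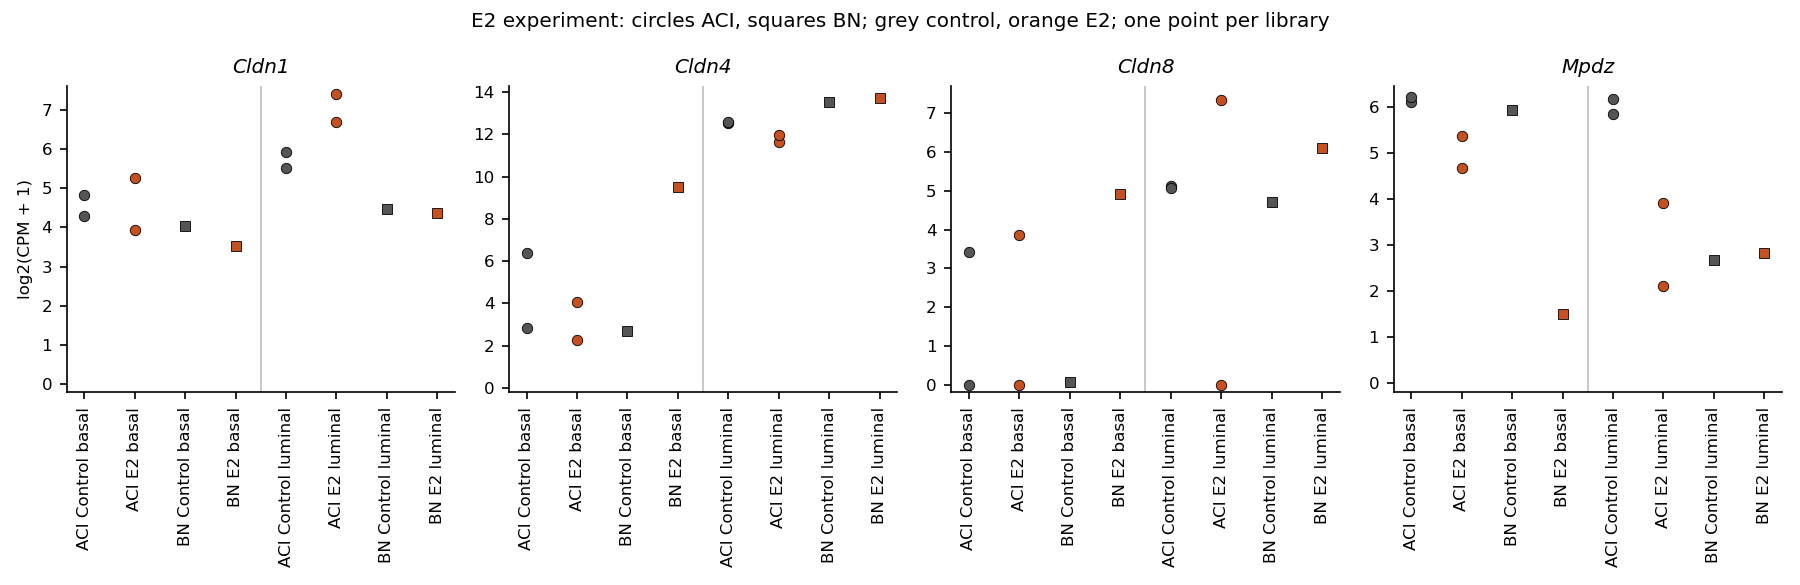
Level of Cldn1, Cldn4, Cldn8 and Mpdz as log2(CPM + 1) in the 12 libraries of the E2 experiment, circles for ACI and squares for BN, grey for control and orange for E2, basal libraries left of the grey line. Cldn1 of ACI luminal cells, from 45.1 to 169 CPM, lies above BN, and Mpdz is lower with E2 in ACI. Neither difference was called.

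Across all 48 libraries the 10 genes did not vary as one group. Cldn3 and Cldn4, neighbours in the genome, were each other's most like gene (Pearson's r of log2 CPM 0.96 among 8493 genes), and Cldn7 was most like Elf5 (0.95) and then Cldn4 (0.94). Ocln was most like Mapk13 and Myo5b (both 0.93), Cldn8 like Edem2 (0.95) and Tmem184a (0.91), and Cldn10 like Slc38a3 (0.90) and Muc1 (0.86). For Tjp1 these were Ptbp3 (0.84) and Ankfy1 (0.83), for Mpdz Fam117b (0.77) and Tmem87b (0.76), and for Cldn1 Arhgef3 and Kat7 (both 0.71). Tjp1 and Mpdz, both scaffolds, had r = 0.48 with each other. These correlations describe libraries that share cell types, ages and sequencing sets, and the libraries are not independent.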

How the data were processed

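RNA of 48 sorted libraries had been amplified with a low-input kit, sequenced as single-end reads, aligned to rn6 with STAR 2.5.1b and counted per RefSeq gene with HTSeq. The authors deposited raw counts per gene, and whether counting used strand is not given in the sources used here. Reads not assigned to a gene (47.1% to 77.0% of each library) were left out. CPM was computed from assigned counts.

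Groups were taken from the sample labels. Each set of libraries was fitted with edgeR 4.0.16 in R 4.3.3 (filterByExpr, TMM, quasi-likelihood test, Benjamini-Hochberg adjustment, threshold 0.05): the 16 of 9 weeks with PNA+ and Cd49b+ LP as one group (their difference in the LP libraries alone), 4 weeks, 6 weeks, both for the change with age, and the 12 of the E2 experiment. The standard error is the log2 fold change divided by the root of the F statistic. The scripts were tested on simulated data. DESeq2 1.42.0, RLE scaling, no filter, leaving out libraries, blocks and other groupings of libraries were alternatives. The crossed block at 9 weeks, the 6-week comparison without Cdkn1b-/- luminal library 2 and the difference between 9 and 4 weeks were added after seeing the data.

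The members and lists were chosen with earlier results of these data known. Named were all 10 genes, Cdkn1b, from each list up to 3 called genes per direction and comparison with the largest change and a mean log2 CPM above 2, and the 2 genes most like each member (Pearson's r of log2 CPM, prior count 2). Nothing states that all libraries of a group came from separate animals, so p-values measure the spread between these libraries. None of 28 replicate pairs agreed within sampling noise. Pairing was checked by the correlation of deviations from group means. Libraries of one genotype and number at 9 weeks correlated (0.34 to 0.93, 12 distinct values, since deviations of 2 libraries mirror each other), as did those of one animal, by their titles, at 4 weeks (0.24 to 0.84) and in the E2 experiment (0.13 to 0.22), and those of 6 weeks did not (-0.0041 to 0.0725). Libraries of the same number and other genotype at 9 weeks correlated negatively (-0.54 to -0.05), so the number does not pair the genotypes. LP libraries of one number are thus not independent samples.

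Peak lists of chromatin immunoprecipitation were not used here, since they carry no gene names and the reference at hand is of another build. Levels were not compared between genes, for want of transcript lengths.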

Additional observations from a re-analysis of the deposited data

Results flagged for a closer look

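Cldn1 in Cdkn1b-/- LP of 9 weeks held 1 value far from the other 3, at 17.7 CPM in Cd49b+ library 2, with a gap to the next value of 0.83 of the whole range. Among 20 groups of 4 libraries checked, chance gives about 1 such value. That library also had the most endothelial markers of the LP libraries, 3149 CPM, and the part of these in the value was not tested.

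Cldn10 moved in opposite directions between the genotypes in groups that do not overlap. At 4 weeks its log2 fold change of Cdkn1b-/- against Cdkn1b+/+ was -0.75 in basal cells and 0.64 in luminal cells, and this difference was not tested. Between 4 weeks (-0.75) and 9 weeks (1.78) in basal cells the difference was 2.53 (SE 1.06) and did not pass edgeR's test over all genes (adjusted p = 0.9999). At 4 weeks all 5 basal values lay under 1 CPM. In all, 120 pairs of contrasts were checked in this way.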

How the results depend on the processing

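Of the 22 comparisons, the number of the 10 genes called stayed within 1.5 times under RLE scaling in 21, without the filter on low counts in 20 and with DESeq2 in 15. DESeq2 called 3 genes for LP against mature luminal cells, 3 for genotype in basal and 1 in mature luminal cells of 9 weeks, 1 for the difference of the genotype effect between LP and basal cells, 2 for genotype in luminal cells of 6 weeks, 2 and 1 for 6 against 4 weeks in basal and luminal cells, and 5 for basal against luminal cells of the E2 experiment. RLE scaling and no filter each gave 2 for 6 against 4 weeks in basal cells, and no filter gave 2 in the E2 experiment. With a replicate block, 7 were called for LP against mature luminal cells (Cldn4, Cldn5, Cldn7, Cldn8 and Tjp1 besides Cldn3 and Mpdz), 2 for genotype in basal cells of 9 weeks and 4 in the E2 experiment, and the block moved no other count of the 10 genes by over 1.5 times. The block lost the calls of Cldn23 in the E2 experiment and of Cldn9, Magi2, Marveld3 and Nectin2 for basal against luminal cells at 6 weeks. Between genotypes at 9 weeks it ties rats that share only a number. The crossed block at 9 weeks, added after seeing the data, called 2 of the 10 genes and 77 genes in all in basal cells. Summing LP libraries of one genotype and number left 0 for genotype in LP. The fit of 4 and 6 weeks together gave 7 for basal against luminal cells at 6 weeks and 2 for genotype in luminal cells. Over the compared libraries alone 0 and 1 were called for 6 against 4 weeks in basal and luminal cells. Leaving out single libraries gave 1 to 3 for LP against mature luminal cells, 0 to 2 for genotype in basal cells of 9 weeks, 0 to 1 for the difference between LP and basal cells, 0 to 2 for genotype in luminal cells of 6 weeks, 1 to 3 for 6 against 4 weeks in basal cells and 0 to 2 in the E2 experiment. For genotype in mature luminal cells the log2 fold change of Mpdz ranged from -1.086 to 0.0847 over single libraries left out, above 0 without the Cdkn1b-/- library 1, and that of Dsc3 for age in luminal cells from 0, without the 6-week Cdkn1b+/+ library 2, to 8.1331. The causes were not tested. Counts over all genes moved more: for genotype in LP from 436 to 5 (LP libraries summed), 157 to 1209 (single libraries left out), 671 and 1284 (block and crossed block) and 1079 (DESeq2), for genotype in basal and mature luminal cells of 9 weeks from 7 and 17 to 162 and 160 (DESeq2), for genotype in basal and luminal cells of 6 weeks from 0 and 0 to 217 and 1103 (ages together) and to 2269 in luminal cells (without Cdkn1b-/- library 1), for LP against mature luminal cells from 2999 to 5473 (block), for basal against luminal cells from 673 to 2062 at 6 weeks and from 70 to 1805 in the E2 experiment (DESeq2), and for 6 against 4 weeks from 1320 and 390 to 2653 and 1690 (DESeq2), 457 and 1 being the lowest counts with single libraries left out. The median log2 fold change of all genes was -0.10 for genotype in luminal cells of 4 weeks, -0.13 for age in luminal cells and -0.14 for E2 in basal cells. Counts under 3 in a library, as for Cldn5 and Cldn10 in many libraries of 6 weeks and of the E2 experiment, give no usable fold.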
